A study of Mus musculus with 6 samples.

Results

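D-type cyclins, the kinases they activate and the inhibitors that hold these kinases back decide whether a cell leaves G1 and copies its DNA. The 10 genes described here were chosen by name. They are the D cyclins Ccnd1, Ccnd2 and Ccnd3, the Cip/Kip inhibitors Cdkn1a (p21), Cdkn1b (p27) and Cdkn1c (p57), the INK4 inhibitors Cdkn2b (p15) and Cdkn2c (p18), the transcription factor gene Myc and the kinase gene Cdk6. All 10 were found by Ensembl ID among the 21603 genes of the series, and all 10 passed the filter on low values that left 12034 genes to test.

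The RNA came from ribosomes of pericytes, the mural cells of capillaries, in mouse lung (C57BL/6) at postnatal day 8 (P8). Each animal carried a Pdgfrb(BAC)-CreERT2 transgene, which is active in PDGFRB-expressing cells after tamoxifen, and an Rpl22 allele that Cre converts into HA-tagged RPL22, so that an anti-HA precipitation recovers the translated RNA of recombined cells from whole lung. Tamoxifen was given from P0 to P2 in both groups. The 3 control lungs were labelled Yap1+/-;Wwtr1+/- and came from Cre-positive mice with floxed and wild-type copies of both genes, while the 3 Yap1,Wwtr1 iPCKO lungs were labelled Yap1-/-;Wwtr1-/- and had only floxed copies. The comparison is thus between pericytes with reduced dosage of the Hippo pathway coactivators YAP1 and TAZ and pericytes in which both genes were targeted for deletion.

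D cyclins bind and activate CDK4 and CDK6, which phosphorylate the retinoblastoma protein RB and release E2F transcription factors. INK4 proteins bind CDK4 and CDK6 directly, Cip/Kip proteins bind cyclin-CDK complexes, and MYC raises transcription of many genes of growth and ribosome production. Ccnd1 and Myc are widely used as readouts of growth signals, and YAP1 and TAZ, acting through TEAD factors, are well known for promoting proliferation in many tissues.

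Values are the deposited RPKM, read counts scaled to the length of the exons and to the size of the library, so that levels of different genes can be set side by side. Low values fell on steps of whole reads, from which depths of about 14240000 to 39580000 reads per library were derived, with control 3 and iPCKO 2 the deepest libraries. Yap1 itself was 13.2, 11.5 and 12.4 RPKM in the controls and 5.76, 5.83 and 5.25 RPKM in the mutants, and fell by 1.12 on the log2 scale (standard error 0.09, adjusted p = 0.000175, limma). Wwtr1 was not called (60.4 ± 9.48 RPKM in controls, 62.0 ± 1.63 RPKM in mutants, SD, n = 3), and since the files hold a single value per gene, reads of recombined exons cannot be separated from the rest. Pdgfrb, the defining pericyte marker, lay between 1193 and 1666 RPKM in every library, and of the 10 pericyte markers 3 were called higher and 3 lower. RNA of other cells was also present. All 10 pan-leukocyte markers had higher means in mutants and 7 passed the thresholds, with a mean log2(RPKM + 0.1) over the list of 1.76 to 2.28 in controls and 2.90 to 3.80 in mutants, and 4 of 9 macrophage and monocyte markers and 6 of 8 platelet markers were called higher too. The neutrophil list moved furthest, from 1.79 to 2.45 in controls to 3.77, 5.65 and 6.95 in iPCKO 1, 2 and 3, with 6 of 10 markers called higher, all 10 higher at an unadjusted limma p under 0.05 and a median log2 fold change of 3.34. Marco, Gp9, Treml1 and Mmp9, all counted here as called, were under 1 RPKM in every control. They passed the filter through the mutants alone. Among all tested genes 4.11% were called higher. Of the other lists, endothelial markers had 2 of 10 called higher, fibroblast markers 1 of 8 lower and erythrocyte markers none of 7, 3 of 9 lymphocyte markers were tested with none called, and no marker was at 0 in all libraries. The epithelial list had 1 of 10 markers called higher and 6 higher at an unadjusted p under 0.05, with means of 4.29 to 4.42 in controls and 4.54 to 4.64 in mutants. The smooth muscle list had 2 of 8 called higher and 1 lower, with means of 6.27 to 6.43 and 6.50 to 6.58. Both lists were thus apart between the groups, and their part in the results below was not tested. Transcripts of the Y chromosome were present in control 1 and control 3 and near 0 in control 2 and all 3 mutants. The labels do not give sex or litter, and nothing says how lungs were assigned to library batches.

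In the Yap1,Wwtr1 iPCKO lungs, 2 of the 10 genes passed the thresholds that the study used (adjusted p under 0.01 together with a log2 fold change past 0.5 in size), and both were D cyclins with higher levels. Ccnd1 rose to 2.31 times and Ccnd2 to 1.55 times the control mean. No inhibitor, and neither Myc nor Cdk6, passed. Across all tested genes 4.11% were called higher and 2.68% lower (6.79% in either direction). With groups of 3, 5 of the 10 genes had values that did not overlap between control and mutant, 3 of them higher and 2 lower, against 35.5% of all tested genes. At an unadjusted limma p under 0.05 there were 6 of the 10, 4 higher and 2 lower, against 29.7% of all tested genes. Ccnd1 alone was called at a log2 fold change past 1, as were 3.42% of all tested genes (2.29% higher). The median log2 fold change was 0.11 over the 10 genes and 0 over all tested genes. In such bulk samples, fewer cells of a type and less RNA per cell cannot be told apart.

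**Figure D1:**
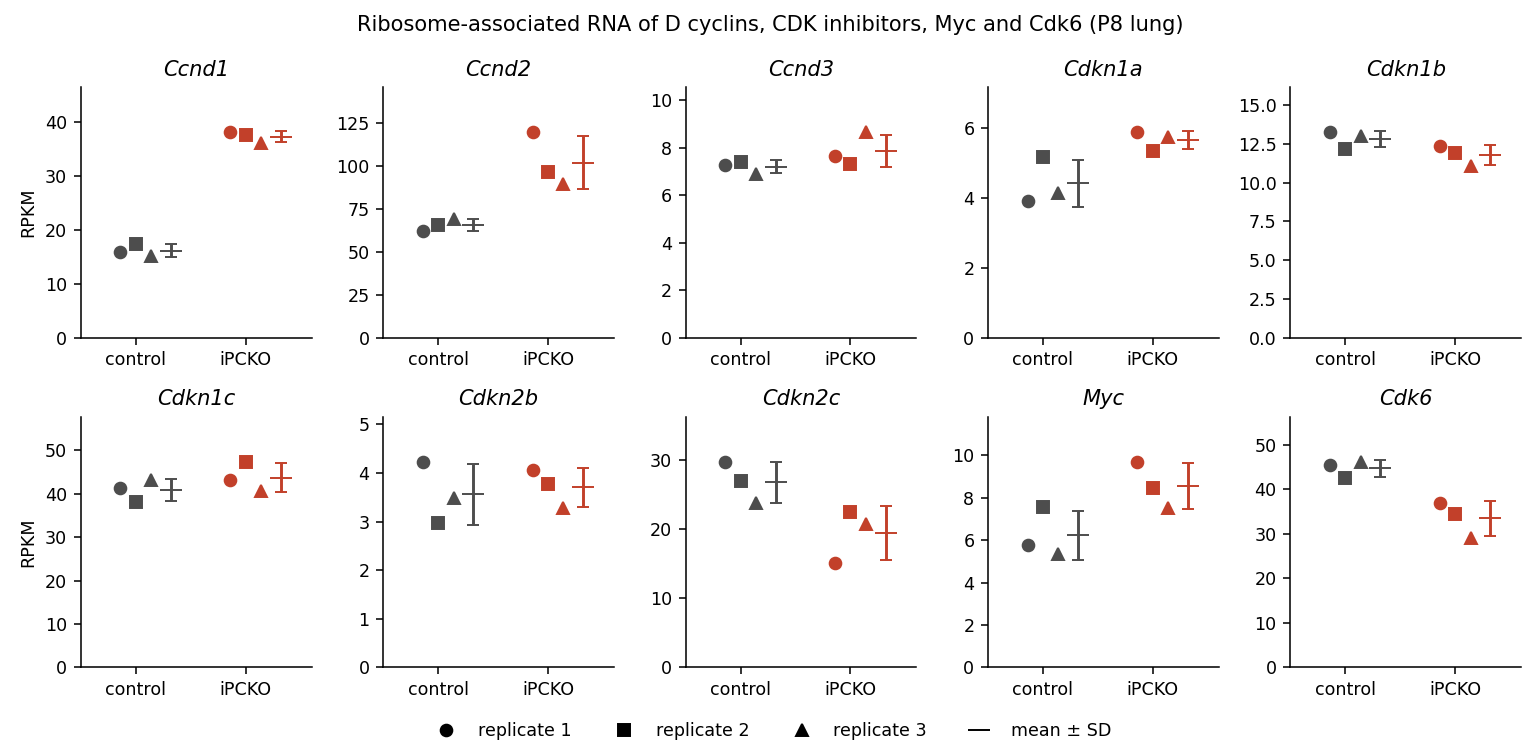
RPKM (vertical axes, each starting at 0) of the 10 genes in the 3 control (grey) and 3 Yap1,Wwtr1 iPCKO (red) lungs; symbols give the replicate number and the bars mean ± SD. Ccnd1 and Ccnd2 were higher in all 3 mutants, as was Cdkn1a without passing the thresholds. Cdk6 and Cdkn2c were lower in all 3, also without passing, and Ccnd3, Cdkn1b, Cdkn1c, Cdkn2b and Myc overlapped between the groups.

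Cyclin D1 gave the clearest difference. Ccnd1 (ENSMUSG00000070348, GRCm38 chromosome 7, 144929931 to 144939925, minus strand) was 15.9, 17.4 and 15.1 RPKM in the 3 controls. In the 3 mutants it was 38.1, 37.6 and 36.1 RPKM. The lowest mutant was thus well over the highest control, and the spread was small in both groups, with means of 16.1 ± 1.17 and 37.3 ± 1.05 RPKM (SD, n = 3). The log2 fold change was 1.20 (standard error 0.09, 95% interval 1.01 to 1.40, adjusted p = 8.09e-05, limma). Ccnd1 passed the thresholds under all 18 alternatives, with log2 fold changes of 1.09 to 1.26. The smallest of these came from the fit with Y-linked transcripts as a covariate (adjusted p = 0.00534), and the one control without such transcripts, control 2, had 17.4 RPKM. The 3′ end of Ccnd1 overlaps LTO1 on the opposite strand. LTO1 was lower than Ccnd1 in every library, at 3.96 to 4.18 RPKM in controls and 3.27 to 3.83 RPKM in mutants, and was not called (log2 fold change -0.18).

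Cyclin D2 was the most abundant of the 10 transcripts. Ccnd2 (ENSMUSG00000000184, chromosome 6, 127125162 to 127152193, minus strand) was 62.3, 65.6 and 68.8 RPKM in controls, above 94.9% of tested genes. In the mutants it was 119, 96.4 and 89.6 RPKM, so that all 3 lay above the controls but were spread more widely (102 ± 15.6 against 65.6 ± 3.23 RPKM, SD, n = 3). The log2 fold change was 0.62 (standard error 0.12, 95% interval 0.35 to 0.90, adjusted p = 0.00943, limma). This call stood close to the threshold and was lost without any one of the 6 lungs, with adjusted p-values of 0.0112 to 0.0336 and log2 fold changes of 0.50 to 0.71, and with the replicate block (0.0118) or Y-linked transcripts as a covariate (log2 fold change 0.63, adjusted p = 0.134).

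Cyclin D3 stayed low in both groups. Ccnd3 (ENSMUSG00000034165, chromosome 17, 47505051 to 47599691, plus strand) had 7.30, 7.41 and 6.90 RPKM in controls and 7.64, 7.34 and 8.65 RPKM in mutants. The groups overlapped, and the log2 fold change of 0.12 had a 95% interval from -0.09 to 0.34, which holds 0 and ends well under the value for Ccnd1. Its 3′ end overlaps Bysl, which lies on the opposite strand and was not called.

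As a family, the D cyclins summed to 85.5, 90.4 and 90.8 RPKM in controls and to 165, 141 and 134 RPKM in mutants. Ccnd2 made up most of this sum throughout, 73.7% ± 1.77 in controls and 69.1% ± 2.90 in mutants. The Ccnd1 part was 18.6%, 19.3% and 16.6% in controls and 23.1%, 26.6% and 26.9% in mutants, a difference of 7.35 percentage points with no overlap between the groups. The Ccnd3 part was 8.11% ± 0.47 in controls and 5.42% ± 0.93 in mutants. Most of the added D cyclin RNA was therefore Ccnd2 by level, although Ccnd1 changed more in proportion. These parts describe the members and were not tested.

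**Figure D2:**
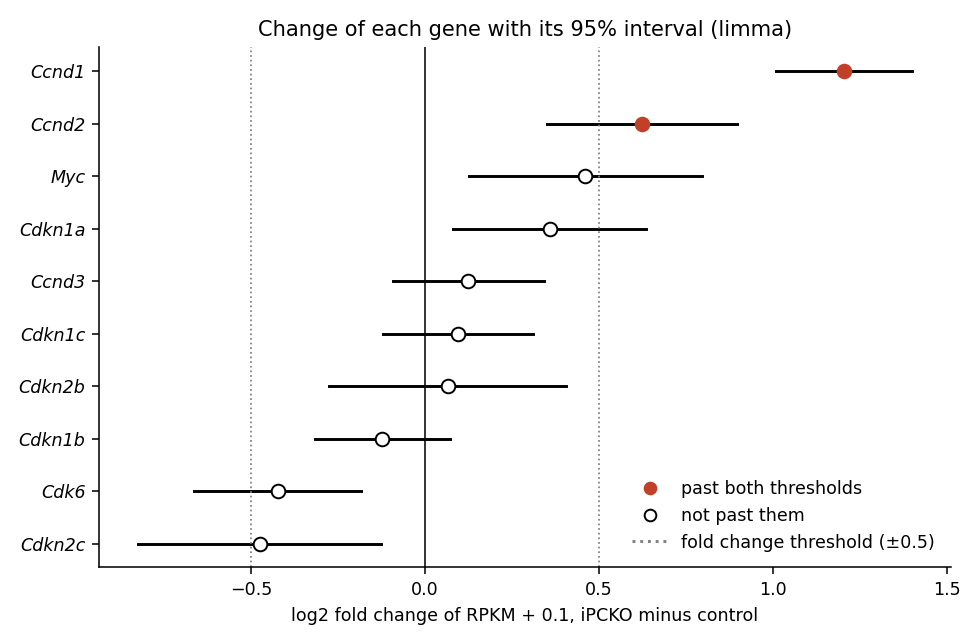
log2 fold change of RPKM + 0.1, iPCKO minus control, for the 10 genes (points, red where past both thresholds) with 95% intervals from limma (lines); dotted lines mark the fold change threshold of 0.5. The intervals of Ccnd3, Cdkn1c, Cdkn2b and Cdkn1b span 0, and that of Ccnd1 lies above 1.

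Cdk6, a kinase partner of the D cyclins, was high in the control RNA. Cdk6 (ENSMUSG00000040274, chromosome 5, 3341485 to 3531008, plus strand) was 45.3, 42.6 and 46.1 RPKM in controls, above 91.6% of tested genes. In the mutants it was 36.9, 34.3 and 29.0 RPKM, which is 74.8% of the control mean, and each mutant lay under each control. The log2 fold change of -0.42 (standard error 0.11, 95% interval -0.66 to -0.18) was smaller than the fold change threshold, and its adjusted p of 0.0292 (limma) missed the other. It passed under none of the 18 alternatives, with log2 fold changes of -0.50 to -0.33. Its paralog Cdk4, set beside it after the values had been seen, was 63.3 ± 4.22 RPKM in controls and 72.4 ± 5.31 RPKM in mutants (log2 fold change 0.19, adjusted p = 0.222). In the sum of both kinases, which was 108 ± 3.92 and 106 ± 8.25 RPKM, the Cdk6 part was 40.4%, 39.9% and 44.0% in controls and 32.0%, 33.5% and 29.1% in mutants.

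Of the INK4 inhibitors among the 10, which bind these kinases directly, Cdkn2c was the one of higher level. Cdkn2c (ENSMUSG00000028551, chromosome 4, 109660876 to 109667189, minus strand) was 29.6, 26.8 and 23.7 RPKM in controls and 15.1, 22.4 and 20.6 RPKM in mutants. All mutants lay under all controls, with the widest gap in iPCKO 1, but the log2 fold change of -0.48 (standard error 0.15, 95% interval -0.83 to -0.13) did not pass (adjusted p = 0.0737, limma). It was -0.31 without iPCKO 1 and -0.23 with sample weights. Cdkn2b (ENSMUSG00000073802, 89306299 to 89311039 on the same chromosome) was the lowest of the 10, at 4.23, 2.96 and 3.50 RPKM in controls and 4.07, 3.79 and 3.27 RPKM in mutants. At the depths read from the files these values correspond to only 65 to 208 reads per library. Its log2 fold change of 0.07 (95% interval -0.28 to 0.41) changed sign without control 2 or without iPCKO 1, so no direction can be given.

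The other INK4 genes complete this family. Cdkn2a, which encodes p16 and ARF and is known for its rise in senescent cells, was between 0.0646 and 0.303 RPKM in every library and under the filter. Cdkn2d (p19) was 21.4, 21.9 and 21.3 RPKM in controls and 24.6, 28.1 and 27.5 RPKM in mutants (log2 fold change 0.31, adjusted p = 0.0413, limma), without overlap but not past the thresholds. The summed INK4 level was 52.0 ± 3.43 RPKM in controls and 49.9 ± 5.48 RPKM in mutants. Within it Cdkn2c made up 53.3%, 51.7% and 48.7% in controls and 34.4%, 41.2% and 40.0% in mutants, and Cdkn2d 41.5% ± 2.67 and 53.7% ± 2.25, so that the larger part was that of Cdkn2c in every control and of Cdkn2d in every mutant.

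**Figure D3:**
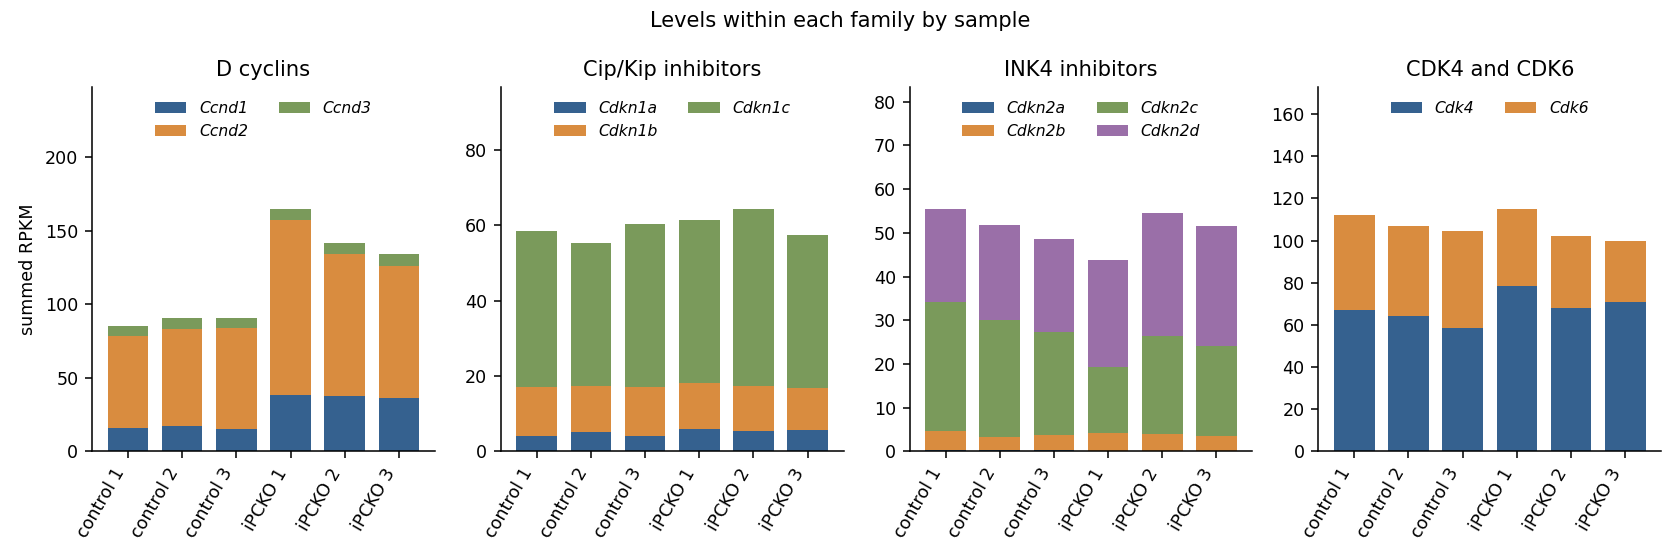
Summed RPKM (vertical axes, from 0) of the D cyclins, the Cip/Kip inhibitors, the INK4 inhibitors and the kinases CDK4 and CDK6 in each of the 6 lungs, divided by gene. The D cyclin bars of the 3 mutants (134 to 165 RPKM) stand above those of the controls (85.5 to 90.8 RPKM), while the other sums overlap between the groups; Cdkn2a is too low to be seen.

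The Cip/Kip inhibitors showed no called change. Cdkn1c (ENSMUSG00000037664, chromosome 7, 143458339 to 143461050, minus strand), an imprinted gene, was by far the most abundant of them, at 41.3, 38.1 and 43.2 RPKM in controls and 43.1, 47.2 and 40.6 RPKM in mutants. These groups overlapped, with a log2 fold change of 0.09 (95% interval -0.12 to 0.31). Cdkn1b (ENSMUSG00000003031, chromosome 6, 134920401 to 134925513, plus strand) was 13.2, 12.2 and 12.98 RPKM in controls against 12.3, 11.9 and 11.0 RPKM in mutants. The log2 fold change of Cdkn1b was -0.12 (95% interval -0.32 to 0.07). Both intervals leave out a change of 0.5 in either direction. Cdkn1a (ENSMUSG00000023067, chromosome 17, 29090976 to 29100727, plus strand), the best known target of p53, was lower in level, at 3.93, 5.19 and 4.16 RPKM in controls and 5.89, 5.37 and 5.74 RPKM in mutants. Every mutant was above every control, but by a small margin over control 2, and the log2 fold change of 0.36 (95% interval 0.08 to 0.64) did not pass (adjusted p = 0.0859, limma). With Y-linked transcripts as a covariate it was 0.12. The sum of the family was 58.1 ± 2.46 RPKM in controls and 61.1 ± 3.57 RPKM in mutants, of which Cdkn1c made up 70.3% ± 1.49 and 71.4% ± 1.59.

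Myc (ENSMUSG00000022346, chromosome 15, 61985391 to 61990374, plus strand) was 5.77, 7.56 and 5.36 RPKM in controls and 9.68, 8.46 and 7.54 RPKM in mutants. Control 2 lay just over iPCKO 3, so the groups overlapped at that point. The log2 fold change of 0.46 (standard error 0.15, 95% interval 0.13 to 0.80) did not pass (adjusted p = 0.0711, limma). It was 0.61 without control 2 and 0.17 with Y-linked transcripts as a covariate. Control 2 was also the control without those transcripts.

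The order of the 10 levels in the control RNA ran from Ccnd2 through Cdk6 (44.7 RPKM on average), Cdkn1c (40.8), Cdkn2c (26.7), Ccnd1 (16.1), Cdkn1b (12.8), Ccnd3 (7.20), Myc (6.23) and Cdkn1a (4.42) to Cdkn2b (3.56). Cdk6 and Cdkn1c overlapped between lungs, as did Ccnd3 and Myc, and Cdkn1a and Cdkn2b, and the other neighbours were apart in all 3 controls. In the mutants Ccnd1 stood above Cdkn2c, which it was under in every control, and Cdk6 lay under Cdkn1c in all 3 lungs.

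Leukocyte and platelet RNA moved with the groups, and its part in these differences was not tested. Among the mutants the mean of the pan-leukocyte list was 2.90 in iPCKO 1, 3.43 in iPCKO 2 and 3.80 in iPCKO 3, and the platelet list was likewise lowest in iPCKO 1 (1.65) and highest in iPCKO 3 (2.69). Members ran both with and against this order. Ccnd1, Ccnd2, Myc and Cdk6 were each highest in iPCKO 1 and lowest in iPCKO 3, so that in the comparison with controls Cdk6 was furthest from them where the markers were highest, and Ccnd3 was highest in iPCKO 3. Without iPCKO 3 the log2 fold change of Ccnd1 was 1.23, that of Ccnd2 0.71 and that of Cdk6 -0.33.

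Only 6 of the 10 genes had an entry in the RefSeq promoter table (GRCm38.p6), which holds 250 bases before to 50 bases after each annotated start. These are Ccnd3, Cdk6, Cdkn1a, Cdkn1b, Cdkn2b and Cdkn2c, with 9 windows together. The windows were searched on both strands for CATTCC, the core bound by TEAD factors, for CACGTG, the E-box bound by MYC and MAX, and for the E2F letters TTTCGCGC and TTTGGCGC. The E-box stood in 1 window each of Cdk6 and Cdkn2c, and in 7.15% of the 32851 windows of all genes. CATTCC was found in a single window, that of a start of Ccnd3, and in 14.7% of all windows, and the E2F letters in none of the 9 and in 0.813% of all. These 3 windows are shown because they hold the letters searched for, which are in capitals. A match describes the letters and not a bound site.
Cdk6, chr5:3343643-3343942, plus strand, E-box beginning at position -220 with the start site as 1: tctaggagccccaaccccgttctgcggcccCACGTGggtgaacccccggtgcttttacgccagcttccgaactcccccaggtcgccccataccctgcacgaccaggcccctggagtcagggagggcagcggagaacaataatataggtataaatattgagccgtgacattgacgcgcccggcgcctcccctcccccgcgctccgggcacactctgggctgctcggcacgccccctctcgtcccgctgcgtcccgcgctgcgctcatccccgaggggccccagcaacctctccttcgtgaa
Cdkn2c, chr4:109665323-109665622, minus strand, E-box beginning at position 35: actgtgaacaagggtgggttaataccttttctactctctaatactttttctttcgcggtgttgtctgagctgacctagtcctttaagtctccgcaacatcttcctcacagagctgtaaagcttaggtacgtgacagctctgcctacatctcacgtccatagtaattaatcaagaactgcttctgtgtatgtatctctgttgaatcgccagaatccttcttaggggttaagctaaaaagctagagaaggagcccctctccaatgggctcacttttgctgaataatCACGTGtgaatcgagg
Ccnd3, chr17:47593217-47593516, plus strand, CATTCC beginning at position -17: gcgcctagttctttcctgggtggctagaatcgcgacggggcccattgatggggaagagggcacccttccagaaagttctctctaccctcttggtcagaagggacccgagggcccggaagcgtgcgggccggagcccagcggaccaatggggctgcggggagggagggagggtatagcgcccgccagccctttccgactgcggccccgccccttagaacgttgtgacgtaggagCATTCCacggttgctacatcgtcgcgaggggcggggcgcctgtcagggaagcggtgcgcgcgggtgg

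The cell cycle genes that act with the 10 were read from lists drawn up by name. Their counts stand beside the 6.79% of all tested genes that were called in either direction. Of 27 genes of G1 and S phase control, which include CDK4, CDK2, the E cyclins, RB family and E2F genes, 26 were tested and 1 was called. This was Cdk7, which encodes the CDK-activating kinase, at 10.03, 11.1 and 11.1 RPKM in controls and 7.50, 7.04 and 7.16 RPKM in mutants. Cdk7 fell by 0.56 on the log2 scale (standard error 0.09, adjusted p = 0.00332, limma), and lost the call without control 2, control 3, iPCKO 2 or iPCKO 3 (adjusted p of 0.0136 to 0.0218). The median log2 fold change of the list was 0.12. At an unadjusted limma p under 0.05 there were 6 genes, 4 of them higher, against 29.7% of all tested genes. Ccne1, named for the largest difference, was 1.93 ± 0.17 RPKM in controls and 3.02 ± 0.35 RPKM in mutants. It did not pass (log2 fold change 0.62, adjusted p = 0.0178, limma).

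Of 15 genes of the MYC network, the partners and antagonists of MYC, 14 were tested and none was called, with 2 at an unadjusted limma p under 0.05 (29.7% of all tested genes). The gene of the largest difference was the MYC antagonist Mxd1, at 5.58 ± 0.49 RPKM in controls and 6.03, 8.50 and 11.1 RPKM in mutants (log2 fold change 0.57, adjusted p = 0.0906), in the same order of mutants as the leukocyte markers above. Of 22 known MYC targets, mostly genes of nucleolar function and biosynthesis, 21 were tested. None was called and 6 had an unadjusted p under 0.05, all of them higher, against 29.7% of all tested genes at that level in either direction and 16.1% higher. Means were higher in mutants for 20 of the 21, with a median log2 fold change of 0.17 beside 0 over all tested genes. The mean log2(RPKM + 0.1) over the list was 3.41, 3.54 and 3.50 in controls and 3.81, 3.58 and 3.58 in mutants. The gap was thus widest in iPCKO 1, and the other mutants lay only just over control 2. The largest difference was that of Shmt1 (1.06 ± 0.13 against 2.23 ± 0.52 RPKM, log2 fold change 0.99, adjusted p = 0.0126).

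Of 22 genes of the p53 pathway, set beside Cdkn1a, 19 were tested and none was called, with 6 at an unadjusted p under 0.05, 3 of them higher, beside the same 29.7%. Perp had the largest difference (0.81 ± 0.13 against 1.31 ± 0.03 RPKM, log2 fold change 0.64, adjusted p = 0.0468). It was under 1 RPKM in every control and passed the filter through the mutants alone. Gadd45a, named for the next largest value, was 5.04 ± 0.32 against 8.00 ± 1.88 RPKM (log2 fold change 0.63, adjusted p = 0.0295, limma). The list's median log2 fold change was 0.03. Of 20 genes linked to quiescence and FOXO factors, which regulate Cdkn1b, 19 were tested and none was called, with 4 at an unadjusted p under 0.05, again beside 29.7%, and a median of -0.08. Gas1, named for its rise in growth-arrested cells, had the largest difference, at 16.9, 11.4 and 9.81 RPKM in controls and 20.2, 25.3 and 22.9 RPKM in mutants (log2 fold change 0.87, adjusted p = 0.0153).

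**Figure D4:**
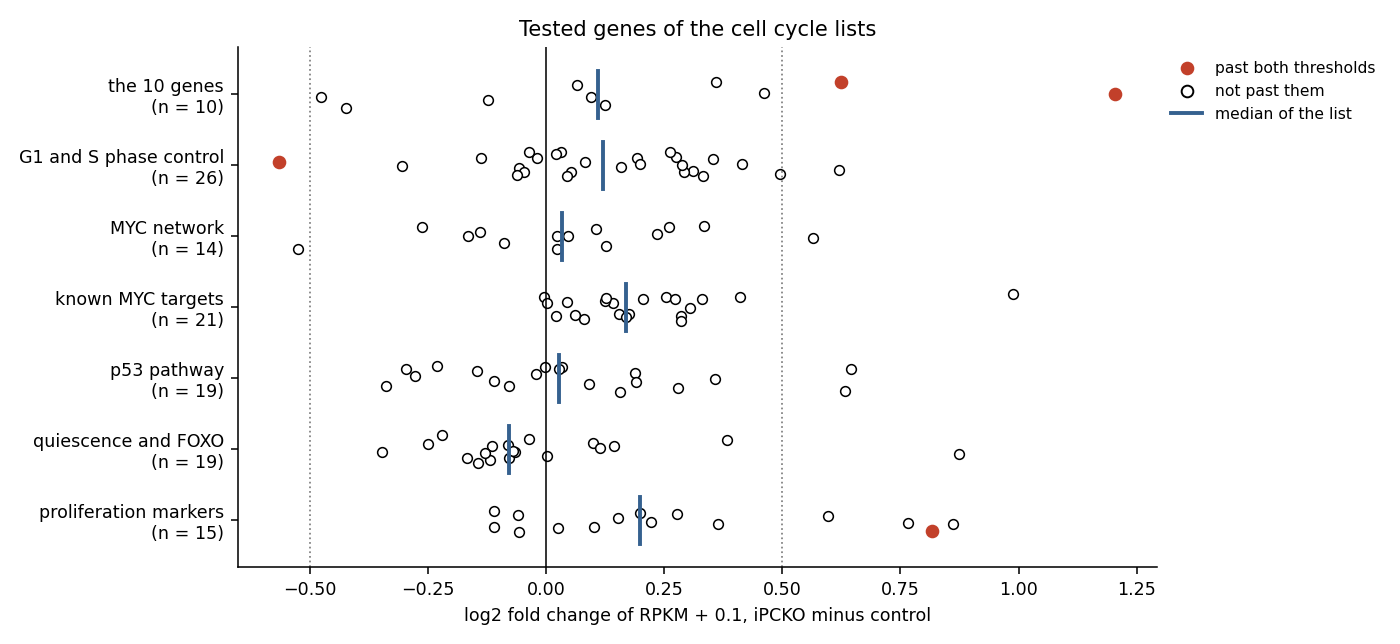
log2 fold change of RPKM + 0.1, iPCKO minus control, for the tested genes of the 10 described here and of the 6 cell cycle lists (points, red where past both thresholds, spread vertically for visibility), with the median of each list (blue line). The 2 red points of the first row are Ccnd2 and Ccnd1, and the lists below hold 2 more, Cdk7 and Mcm2.

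All 15 proliferation markers were tested, and 1 was called, against 6.79% of all tested genes. At an unadjusted limma p under 0.05 there were 4, all of them higher, against 29.7% of all tested genes (16.1% higher). The median log2 fold change of the list was 0.20, with 11 means higher in mutants and 4 lower. Mcm2, a subunit of the replicative helicase, was 12.2, 17.7 and 15.3 RPKM in controls and rose to 28.6, 22.2 and 28.5 RPKM in mutants (log2 fold change 0.82, standard error 0.15, adjusted p = 0.0086, limma). Its call was lost in each fit that left out a lung other than control 2 (adjusted p of 0.0103 to 0.0351), and also with the replicate block (0.0124) or the Y-linked covariate (0.198). The next largest differences of the list, named for their values, were those of Mcm5, Pcna and Rrm2, with log2 fold changes of 0.86, 0.77 and 0.60 and adjusted p-values between 0.0105 and 0.0462. Tyms, which like these acts in S phase, was at 0.36 (adjusted p = 0.203). The 4 markers with lower means were Ccnb1, Ccnb2, Ccna2 and Plk1, at -0.06, -0.11, -0.06 and -0.11. The mitotic kinase genes Cdk1, Bub1 and Aurkb were at 0.20, 0.28 and 0.15, and Birc5 and Top2a at 0.22 and 0.10. None of these was called, and the fold changes of mitotic genes thus lay on both sides of 0, with mutants that differed widely. Ccnb1, Ccnb2, Ccna2, Plk1, Bub1, Birc5 and Top2a were each under all controls in iPCKO 1, while Cdk1 and Aurkb were not. Ccnb2, Ccna2, Bub1, Birc5 and Top2a were above all controls in iPCKO 2 and iPCKO 3. For example, Ccnb2 was 26.2, 29.6 and 26.9 RPKM in controls and 14.3, 35.3 and 32.8 RPKM in mutants. Mki67, a general marker of cycling cells named after the values had been seen, had a log2 fold change of 0.03 and was not called. It was 35.1, 33.6 and 31.1 RPKM in controls and 20.4, 42.7 and 44.3 RPKM in mutants, so that iPCKO 1 lay under all controls and the other mutants above them. iPCKO 1 was also the lung with the most Ccnd1, Ccnd2, Myc and Cdkn1a and the least Cdkn2c.

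The genes whose centred log2 values over the 6 lungs were most like those of Ccnd1 were Stc1, which encodes the secreted glycoprotein stanniocalcin-1, and Enpp2, which encodes the lysophosphatidic acid-producing enzyme autotaxin, with root mean square differences of 0.05 and 0.07 on the log2 scale. Stc1 was 7.42 to 9.12 RPKM in controls and 17.6 to 20.0 RPKM in mutants. Enpp2 was 39.3 to 39.8 and 83.4 to 95.4 RPKM. Most like Ccnd2 were Fam110a (0.06) and Ociad1 (0.06), with log2 fold changes of 0.57 (adjusted p = 0.0129, not past the thresholds) and 0.60 (adjusted p = 0.00413).

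**Figure D5:**
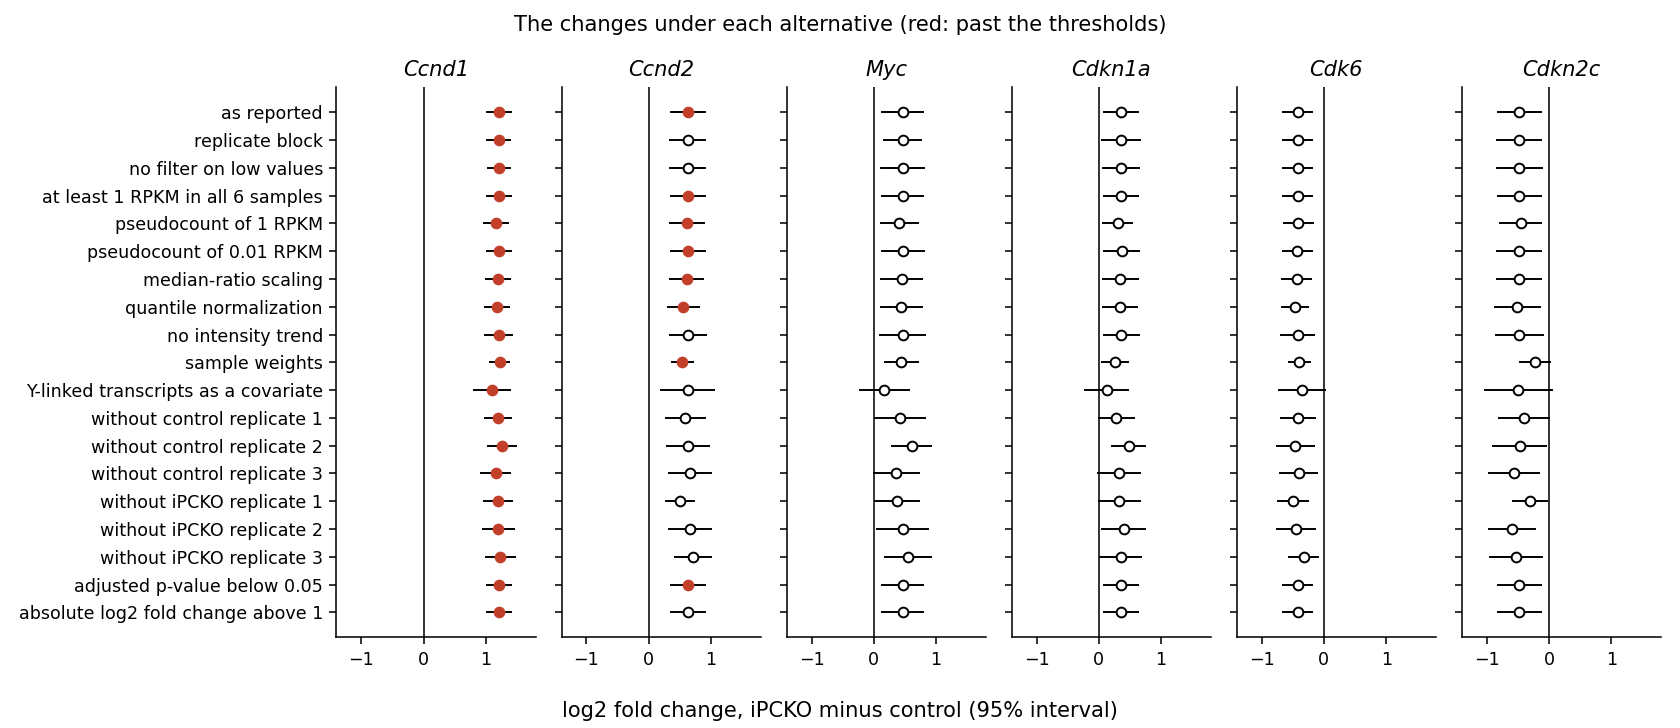
log2 fold change, iPCKO minus control, with 95% intervals for Ccnd1, Ccnd2, Myc, Cdkn1a, Cdk6 and Cdkn2c as reported and under each of the 18 alternatives (rows); red points passed the thresholds of that row. Ccnd1 is red in every row, Ccnd2 in 7 of the 18 alternatives, and the other 4 genes in none.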

How the data were processed

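Anti-HA precipitated RNA of 3 control and 3 Yap1,Wwtr1 iPCKO lungs was sequenced from stranded total RNA libraries. Per the labels and the study's methods, the authors aligned read pairs with TopHat to mm10 (GRCm38), obtained counts per gene from HTSeq 0.6.1 and deposited RPKM values, 1 table per lung. The exon lengths behind the RPKM and the strand setting of the counting are not given in the sources used here, so reads of overlapping antisense genes may not be separated. No counts were used, and depth is known only from the steps of low values (within 0.02 reads of a whole number for 75.1% to 77.1% of low values up to 10 reads).

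Symbols for 21375 of 21603 IDs and all coordinates came from GENCODE M21 (GRCm38), promoter sequences from RefSeq. Genes that reached 1 RPKM in 3 or more of the 6 samples were tested as log2(RPKM + 0.1) with limma (trend, Benjamini-Hochberg over 12034 genes), without further scaling. Fold changes on this scale understate those of low genes. Labels do not say whether replicates share litters. Same-numbered samples had deviations from the group means that correlated with r of 0.238, 0.092 and 0.022, and differently numbered samples with r of -0.298 to 0.273. Deviations within a group are tied to each other, so these values cannot settle whether the number marks a pairing. The number was not taken as a pairing in the fit reported. The members, lists and tests were chosen with earlier results of these data known. The text names the 10 members, the deleted genes, list genes past the thresholds or, where there are none, the one with the largest difference, the 2 genes most like each called member, and others where it says so. The fit was tested on simulated data. Alternatives were a replicate block, 2 filters, pseudocounts of 1 and 0.01, 2 scalings, no trend, sample weights, Y-linked transcripts as a covariate, 2 thresholds and each sample left out. limma 3.58.1 ran in R 4.3.3, and tables and plots were made in Python 3.11.15.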

Additional observations from a re-analysis of the deposited data

How the results depend on the processing

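Ccnd1 kept its direction and its call in all alternatives. Ccnd2 kept its direction in all, with adjusted p-values of 0.0118 with the replicate block (log2 fold change 0.62), 0.016 with no filter on low values, 0.0145 without an intensity trend and 0.134 with Y-linked transcripts as a covariate (0.63), and its 0.62 is under a log2 fold change threshold of 1. It ranged from 0.50 to 0.71 with each lung left out. In each of these the members called numbered 1. The replicate block changed no other member's call. Cdkn2b reversed without control 2 and without iPCKO 1 (-0.0023), within a range of -0.056 to 0.193 with a lung left out. Wwtr1 reversed under quantile normalization (-0.000123) and without control 2, within -0.029 to 0.173, and Bysl without iPCKO 3, within -0.153 to 0.020.

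Over all genes, 817 passed as reported, 922 with the replicate block, 1590 with sample weights, 119 with Y-linked transcripts as a covariate, 1313 at an adjusted p-value below 0.05, 411 at a log2 fold change above 1, and 382 (without control 3) to 899 (without iPCKO 1) with a lung left out, including 414 without iPCKO 2 and 499 without iPCKO 3. Counts in the lists moved by 1 to 3 genes. Proliferation markers had 0 called with the block, no filter, either scaling, no trend, the Y-linked covariate or a fold change above 1, 2 with sample weights, 4 at an adjusted p-value of 0.05 and 0 to 2 with a lung left out. G1 and S phase control had 0 with the Y-linked covariate or a fold change above 1, 2 at 0.05 and 0 to 1 with a lung left out. The MYC network had 2 with sample weights and 0 to 1 with a lung left out. MYC targets had 1 at 0.05 and 0 to 1 with a lung left out. The p53 list had 1 with sample weights and 2 at 0.05. The quiescence list had 2 with sample weights, 1 at 0.05 and 0 to 2 with a lung left out. Where a call changed, the cause was not tested. Depth limits Cdkn2b most.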
